A study of Mus musculus with 2 samples.

Results

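The genes described here encode the steps of glycolysis and the cellular response to low oxygen. They were chosen by name, as the Ensembl genes matching 40 symbols, and all 40 were found among the 43346 Ensembl genes of the tables. Of these, 24 are glucose transporters, glycolytic enzymes and enzymes or carriers of pyruvate and lactate, 8 are components of the hypoxia-inducible factor (HIF) system, and 8 are other known HIF targets. The tissue was the adrenal gland of B6NCrl mice aged 0 days, and the labels name neither a treatment nor an altered gene and state that sex was not collected. From each of 2 pups, which carry 1 shared number of a pregnant animal, both adrenals went into 1 total RNA library made from 10 ng. Both libraries form 1 group, so the data give the level of each gene and how far the pups lie apart. With 1 library per pup, a difference between pups has no replicate check and carries no p-value.

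Glycolysis splits glucose into pyruvate in the cytosol, and lactate dehydrogenase turns pyruvate into lactate when it is not taken up by mitochondria. HIF is a pair of proteins, an alpha subunit that is destroyed when oxygen is present and a stable partner, ARNT. Prolyl hydroxylases of the EGLN family mark the alpha subunit with oxygen, and the VHL protein then directs its destruction. When oxygen is scarce HIF binds DNA at short sites and raises the transcription of many glycolytic genes. Because HIF alpha is controlled mainly as a protein, the RNA of its genes is no readout of its activity.

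Summed over Ensembl genes, the depth was 41504343 estimated counts for pup 1 and 40799478 for pup 2. Steroidogenic cortex markers were abundant, with 7 of 7 above 1 TPM (the deposited level per transcript length and library) in both pups and summed levels of 6435 and 17156 TPM in pups 1 and 2, and 7 of 7 chromaffin markers also passed 1 TPM in both. Marker levels differed between the pups: the scaled counts of cortex markers had a median log2 ratio of 1.18 (positive where pup 2 is higher), and 7 markers of sympathetic neurons one of -2.02. It was 1.57 over 6 skeletal muscle markers, -0.82 over 6 liver markers and -4.87 over 6 markers of stomach and oesophagus. The median was also below 0 for fibroblasts and capsule (-0.84), Schwann cells and glia (-0.92) and leukocytes (-0.68, with 2 of 6 above 0). It was above 0 for endothelium (0.71), chromaffin cells (0.53) and erythroid cells (0.19). Markers of several cell types thus lay on each side. In bulk tissue, fewer cells of a type and less RNA per cell cannot be told apart. All log2 ratios put pup 2 over pup 1 and use counts scaled by TMM (a method that assumes most genes do not differ), so every direction below is relative to the bulk of genes. Scaling by added spike-in RNA instead places all 40 genes higher in pup 2, since it shifts the median of all genes by 2.56, against 0.00 under TMM.

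Sequences are shown first for 4 promoters and 1 pair of exons, because the text returns to them: Ldha and Ldhb make the subunits of lactate dehydrogenase, Bnip3 was the most abundant of the other HIF targets by coding transcripts, and Hk2 lay over 2-fold apart between the pups. Each promoter is the 250 bases before the RefSeq start (build GRCm38.p6), written 5′ to 3′ on the strand of the gene. Capitals mark the core of the HIF response element, ACGTG or GCGTG, or its reverse complement, CACGT or CACGC.
Ldha (chr7:46845554-46845803, plus strand): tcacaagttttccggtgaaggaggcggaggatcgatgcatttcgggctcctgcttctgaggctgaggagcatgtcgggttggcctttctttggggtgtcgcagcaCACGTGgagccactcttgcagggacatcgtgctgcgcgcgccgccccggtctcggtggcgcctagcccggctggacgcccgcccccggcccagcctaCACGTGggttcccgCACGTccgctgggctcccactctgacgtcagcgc
Ldhb (chr6:142507958-142508207, minus strand): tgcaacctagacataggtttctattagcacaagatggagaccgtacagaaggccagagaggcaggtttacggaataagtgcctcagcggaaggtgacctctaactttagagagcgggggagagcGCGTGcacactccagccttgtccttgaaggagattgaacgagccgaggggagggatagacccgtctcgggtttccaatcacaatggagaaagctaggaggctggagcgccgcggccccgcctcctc
Bnip3 (chr7:138909507-138909756, minus strand): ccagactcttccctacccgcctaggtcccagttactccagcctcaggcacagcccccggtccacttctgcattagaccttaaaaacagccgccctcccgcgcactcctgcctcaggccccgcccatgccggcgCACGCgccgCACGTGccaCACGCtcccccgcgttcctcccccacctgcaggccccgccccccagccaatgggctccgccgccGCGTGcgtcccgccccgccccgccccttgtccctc
Hk2 (chr6:82774455-82774704, minus strand): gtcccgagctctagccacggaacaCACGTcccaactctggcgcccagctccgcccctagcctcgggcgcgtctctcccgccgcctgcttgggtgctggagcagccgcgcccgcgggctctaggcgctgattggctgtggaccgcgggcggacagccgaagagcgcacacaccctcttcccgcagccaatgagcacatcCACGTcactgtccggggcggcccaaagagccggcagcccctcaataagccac

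The core was present in most of these promoters. Of the 40 genes, 36 had a promoter in the RefSeq table, and Bnip3l, Epas1, Ndrg1 and Slc2a3 are named only. Where a gene had several windows, the one nearest to the start of its leading coding transcript was taken. The 2 starts lay 244 bases apart for Eno1 and 208 for Pkm. In 28 of 36 windows the first 30 transcribed bases matched an annotated transcript of the gene. A core on either strand was found in 30 of 36 windows, or 83.3%, against 38.6% of all 32851 windows of the same length. The second share counts every window, whatever the level of its gene, while each member gives 1 chosen window. The 2 shares are thus not matched. The median GC content was 62.4% in the members' windows and 52.4% in all windows, and the core itself contains CG, so the part of base composition in this difference was not tested. By kind, 18 of 23 windows of glycolysis genes, 6 of 7 of HIF components and 6 of 6 of other HIF targets held a core. Ldha and Bnip3 had the most, with 5 matches each, where CACGTG counts once on each strand and occurs 2 times in Ldha and 1 time in Bnip3. Gpi1, Tpi1, Pgam2, Eno2, Pkm and Vhl had no match in these windows, which says only that these letters are absent there. A match is a description of the sequence and not a site.

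**Figure D1:**
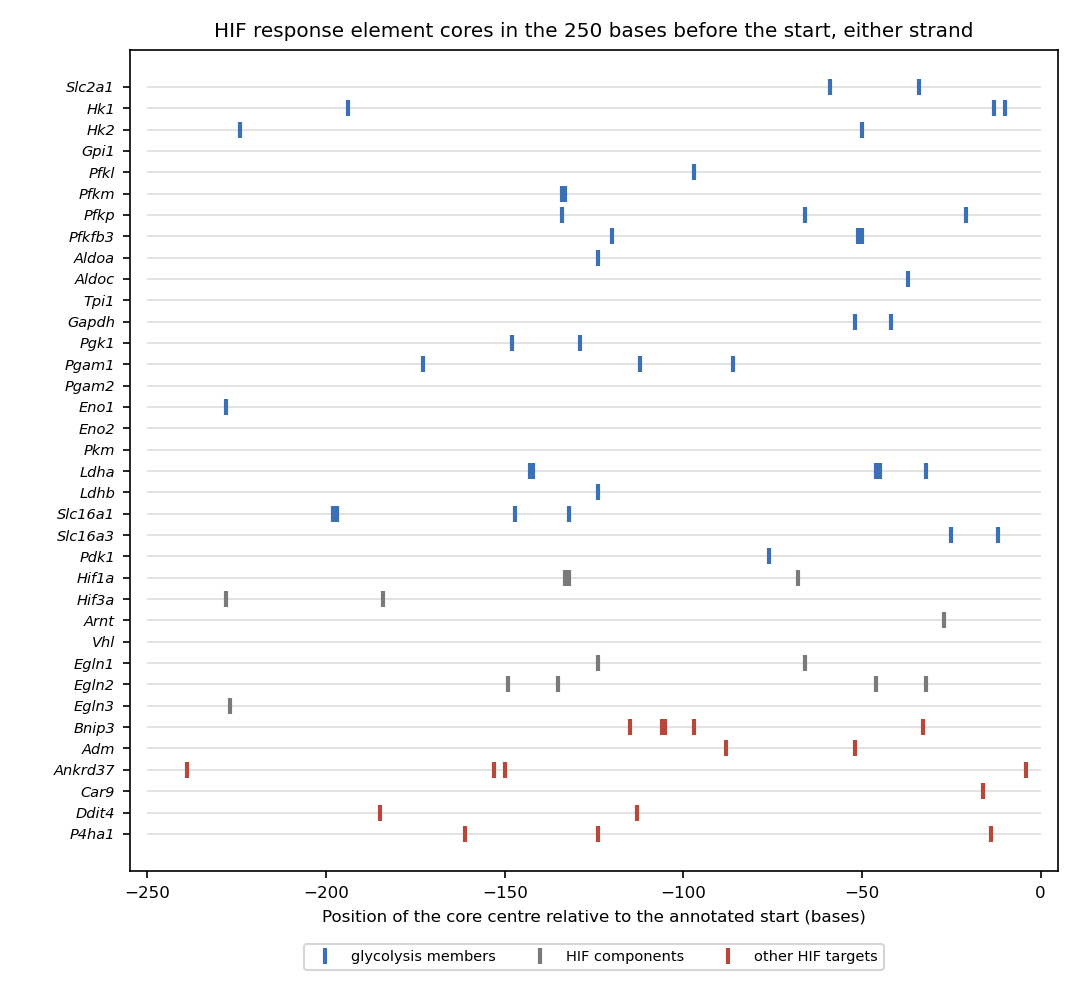
Positions of the HIF response element core (ACGTG or GCGTG, either strand) in the 250 bases before the annotated start of 36 genes, in bases from the start, with 1 line per gene and 1 tick per match, coloured by kind of gene. The 5 matches of Ldha and of Bnip3 include overlapping pairs at CACGTG, and 6 genes have no tick.

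The glycolytic genes spanned 3 orders of level, and the HIF components ran from 2.70 to 50.7 TPM. The median level over the 24 glycolysis genes was 25.1 TPM in pup 1 and 35.6 TPM in pup 2 (30.3 ± 7.39, SD, n = 2). Over the 8 HIF components it was 11.0 and 14.0 TPM (12.5 ± 2.15), and over the 8 other HIF targets 27.2 and 24.7 TPM (25.9 ± 1.72). Over the 18670 genes whose mean count reached 10, the median was 5.93 and 7.54 TPM. All 40 genes passed that count minimum, and 39 reached 1 TPM in both pups. The exception was Hk2 at 0.75 TPM in pup 1. Glycolytic genes such as Gapdh, Eno1, Pgam1 and Ldha have near-identical pseudogene copies that can share their reads, and a division of reads among copies is an estimate. The deposited posterior standard deviation of a count was highest for Pgk1, at 1.60% and 1.65% of its posterior mean.

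**Figure D2:**
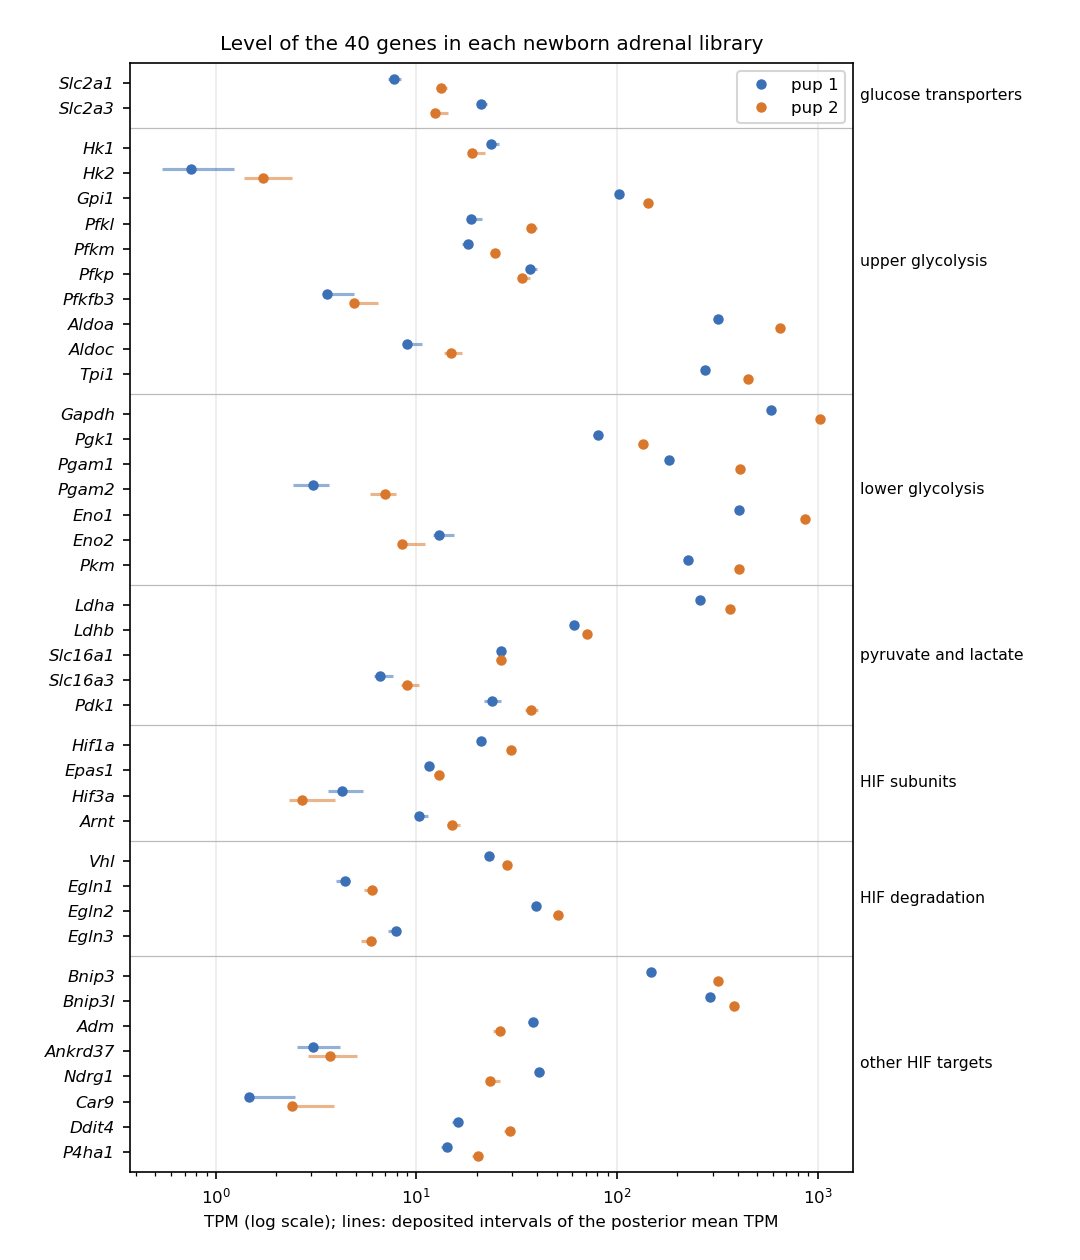
Level of each of the 40 genes in TPM (log axis) in pup 1 and pup 2, grouped by role, with lines for the deposited intervals of the posterior mean TPM. Gapdh stands highest at 587 and 1031 TPM and Hk2 lowest at 0.75 and 1.72 TPM.

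Of the glucose carriers, the 40 genes hold Slc2a1, the widespread GLUT1, and Slc2a3, the high-affinity GLUT3 of neurons. Other carriers were lower but present, with Slc2a4 at 4.65 and 3.95 TPM and Slc2a2 at 2.95 and 1.68 TPM, and are not in the shares below. Slc2a3 (ENSMUSG00000003153.6, chromosome 6, 122727809 to 122801640, mm10) stood at 20.9 TPM in pup 1 against 12.4 TPM in pup 2, from 3197 and 1511 counts. Slc2a1 stood at 7.71 and 13.3 TPM, from 780 and 1078 counts. Slc2a3 thus led with 73.1% of the TPM of these 2 genes in pup 1 and held 48.3% in pup 2, where the deposited intervals of the carriers overlapped (12.1 to 14.3 TPM for Slc2a3 and 12.5 to 14.2 TPM for Slc2a1). The log2 ratio of Slc2a3 was -1.17 (95% counting interval -1.26 to -1.08), a 2.24-fold difference and one of the largest among the 40 genes. Summed levels of 7 sympathetic neuron markers, all above 1 TPM in both pups, were 1225 and 384 TPM. Markers of other cell types were also lower in pup 2, and the part of any of them in the Slc2a3 difference was not tested.

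In each enzyme family of the upper pathway except phosphofructokinase, 1 isozyme carried nearly all of the RNA. Hk1, the hexokinase of most tissues, stood at 23.6 and 18.9 TPM and held 94.3% ± 3.72 of the TPM of these 2 hexokinases (SD, n = 2). By scaled counts its log2 ratio was -0.79 (interval -0.87 to -0.72). Medians of neuron, fibroblast, glia, leukocyte, liver and stomach markers lay on the same side, and the part of each was not tested. Hk2, the insulin- and HIF-responsive hexokinase of muscle (ENSMUSG00000000628.6, chromosome 6, 82725025 to 82774454), had 89 and 221 counts. Its log2 ratio was 1.22, but at this depth the interval ran from 0.87 to 1.60 and so included a difference under 2-fold. Skeletal muscle markers, 5 of 6 above 1 TPM in both pups, summed to 81.4 and 321 TPM, and their part in Hk2 was not tested. Aldoa, the aldolase of muscle and most other cells, held 97.5% ± 0.35 of the 2 aldolases, with 319 and 650 TPM against 8.97 and 14.9 TPM of the brain form Aldoc. Both aldolases had a ratio above 0, with 0.65 for Aldoa and 0.28 for Aldoc.

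Phosphofructokinase, which commits glucose to the pathway, was mixed. Pfkp, the platelet form, stood at 37.1 and 33.8 TPM, Pfkl, the liver form, at 18.8 and 37.3 TPM, and Pfkm, the muscle form, at 18.0 and 24.7 TPM. Pfkp led in pup 1 with 50.1% of their sum, whereas Pfkl led in pup 2 with 39.0% against 35.3% of Pfkp. By scaled counts Pfkl had a log2 ratio of 0.54 and Pfkp of -0.58, while Pfkm was close to level (0.06, interval -0.03 to 0.15). Pfkfb3, whose enzyme makes the activator of phosphofructokinase, was low at 3.59 and 4.88 TPM, with a ratio of 0.05 whose interval included 0 (-0.14 to 0.25). The remaining upper enzymes, Gpi1 (102 and 143 TPM) and Tpi1 (275 and 449 TPM), which interconvert sugar phosphates, had log2 ratios of 0.09 and 0.32.

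Genes of the lower pathway were the most abundant, and 6 of 7 had a ratio above 0. Eno1, the common enolase (ENSMUSG00000063524.9, chromosome 4, 150236721 to 150248879), had 31423 counts in pup 1 and 54192 in pup 2, or 408 and 868 TPM. Pgam1, the phosphoglycerate mutase of most tissues, stood at 182 and 412 TPM, and Pgk1, the first ATP-making kinase of the pathway, at 80.5 and 135 TPM. Their log2 ratios were 0.70 for Eno1, 0.79 for Pgam1 and 0.36 for Pgk1. The median log2 ratio of the 7 genes was 0.46, against 0.19 over the 10 upper enzymes and 0.09 over the 5 genes of pyruvate and lactate. The cortex markers, whose summed scaled counts had a log2 ratio of 1.05, lay further apart in the same direction. Sums of skeletal muscle (1.68), chromaffin (0.83) and endothelial markers (0.52) lay on that side too, and those of the other marker lists lay below 0. The part of any of them was not tested.

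The tissue-restricted partners of these enzymes were rare. Pgam2, the muscle mutase, had 91 and 169 counts (3.04 and 6.96 TPM) and 1.65% ± 0.017 of mutase TPM (SD, n = 2). Its log2 ratio of 0.81 was close to that of Pgam1 but had a wide interval, 0.43 to 1.19. The muscle marker sums given beside Hk2 also stand beside Pgam2. Eno2, the enolase of neurons and neuroendocrine cells, went the other way from Eno1 with 1068 and 593 counts (12.9 and 8.52 TPM). Its log2 ratio was -0.93 (interval -1.08 to -0.79). Its share of the summed TPM of Eno1 and Eno2 was 3.07% in pup 1 and 0.97% in pup 2. A further enolase gene, Eno3, named after its values were seen, stood at 9.43 and 16.3 TPM and is outside this share. Like Eno2, all 7 neuron markers were lower in pup 2 by scaled counts, with log2 ratios from -2.26 to -1.32. So were all 6 markers of fibroblasts and capsule and all 6 of Schwann cells and glia. Of 7 chromaffin markers, 5 were instead higher in pup 2 and 2 were lower, with a median log2 ratio of 0.53. The part of any of these cells in Eno2 was not tested. Among the genes of the lower pathway Eno2 was the exception in direction, except under spike-in scaling.

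**Figure D3:**
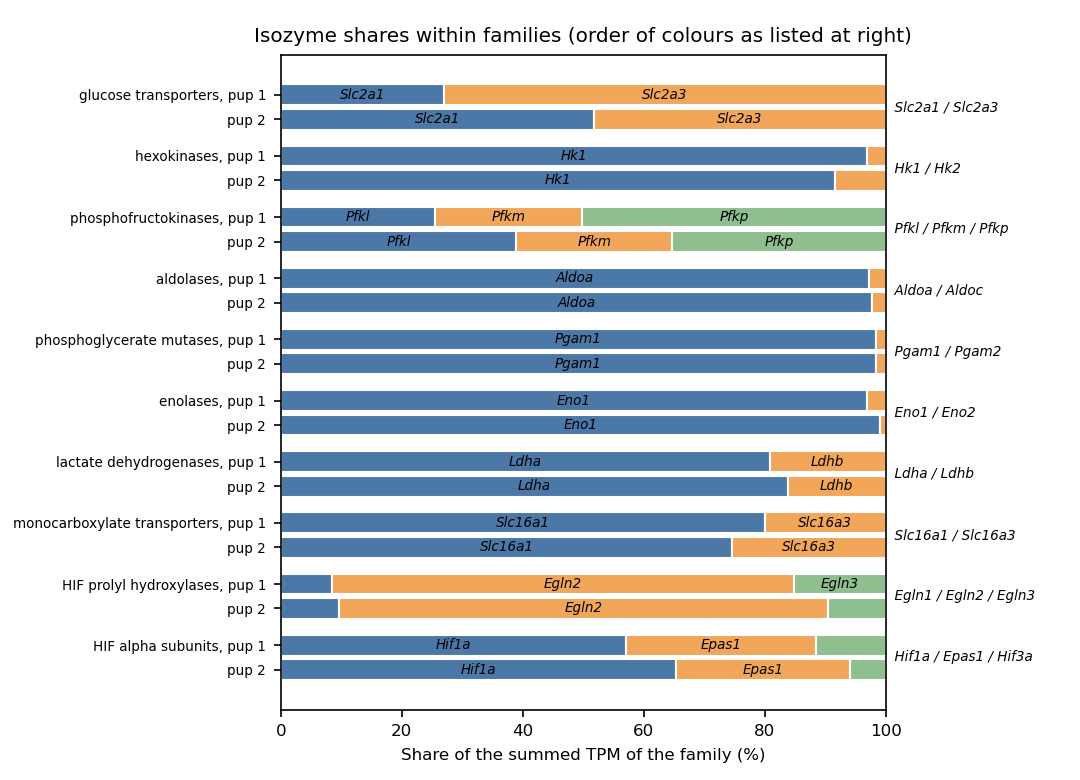
Share of each isozyme in the summed TPM of its family (percent) for 10 families, with 1 bar per pup. One gene fills over 90% of the bar for hexokinases, aldolases, phosphoglycerate mutases and enolases, while glucose transporters and phosphofructokinases are mixed.

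Gapdh appeared as the most abundant of the 40 genes, but that rank rested on a short noncoding transcript. Gapdh, the dehydrogenase of the pathway (ENSMUSG00000057666.14, chromosome 6, 125161715 to 125166467), was listed at 587 and 1031 TPM, with a log2 ratio of 0.44. The transcript Gapdh-208, annotated as a processed transcript of 483 nt, held 65.8% ± 0.30 of this TPM (SD, n = 2), and the coding Gapdh-203 held 32.8% ± 0.27. All 483 bases of Gapdh-208 lie in exons of Gapdh-203, so the division of reads between them is an estimate. TPM divides by effective length, which was 384 nt for Gapdh-208 and 1321 nt for Gapdh-203, so reads assigned to the short form count for more. Over coding transcripts alone Gapdh stood at 272 ± 108 TPM (SD, n = 2), and its rank among the 40 genes moved from 1 to 7 while Eno1 became the first.

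Pkm, the pyruvate kinase gene, differed between the pups in the balance of its isoforms. Pkm (ENSMUSG00000032294.12, chromosome 9, 59656368 to 59679375) makes M1, the form of muscle and brain, and M2, the form of proliferating and many other tissues, by choice between a pair of exons. The exons have 167 bases each, both coding, and are identical at 103 of them (61.7%). Both are printed from the GENCODE M21 transcripts (mm10, plus strand) with the 64 differing bases in capitals, since these letters are what lets reads tell the isoforms apart.
Pkm M1 exon (chr9:59675029-59675195): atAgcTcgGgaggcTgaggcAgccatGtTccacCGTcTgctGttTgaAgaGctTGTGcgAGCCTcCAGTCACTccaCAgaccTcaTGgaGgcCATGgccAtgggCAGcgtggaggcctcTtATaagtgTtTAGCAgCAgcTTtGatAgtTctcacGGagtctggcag
Pkm M2 exon (chr9:59675568-59675734): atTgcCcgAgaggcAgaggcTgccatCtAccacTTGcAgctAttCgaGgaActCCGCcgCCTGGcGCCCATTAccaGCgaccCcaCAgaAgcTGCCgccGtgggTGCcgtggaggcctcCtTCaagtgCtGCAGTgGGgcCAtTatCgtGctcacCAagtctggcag

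The M2 transcript (Pkm-201, ENSMUST00000034834.11) was the major form in both pups, with 79.6% ± 8.72 of Pkm TPM (SD, n = 2). It stood at 166 TPM in pup 1 (interval 159 to 168) and 348 TPM in pup 2 (336 to 348). The M1 transcript (Pkm-202, ENSMUST00000163694.2) stood at 60.1 TPM (55.2 to 62.6) and 57.9 TPM (52.1 to 61.0), with intervals that overlap. The gap between the pups in Pkm TPM, 226 against 406, was thus in the M2 transcript on that scale. By counts, M2 had 15591 and 26581 and M1 had 5653 and 4429. After TMM scaling both isoforms lay apart, in opposite directions: the log2 ratio was 0.68 for M2 (counting interval 0.66 to 0.71) and -0.44 for M1 (-0.49 to -0.38). These intervals leave out the error of dividing reads between isoforms, and spike-in scaling places both higher in pup 2, at 3.25 and 2.13. The share of M1 was 26.6% in pup 1 and 14.3% in pup 2, and the neuron markers summed to 1225 and 384 TPM. Skeletal muscle markers went the other way, with sums of 81.4 and 321 TPM. Whether neurons, muscle or other cells contributed the M1 form was not tested.

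**Figure D4:**
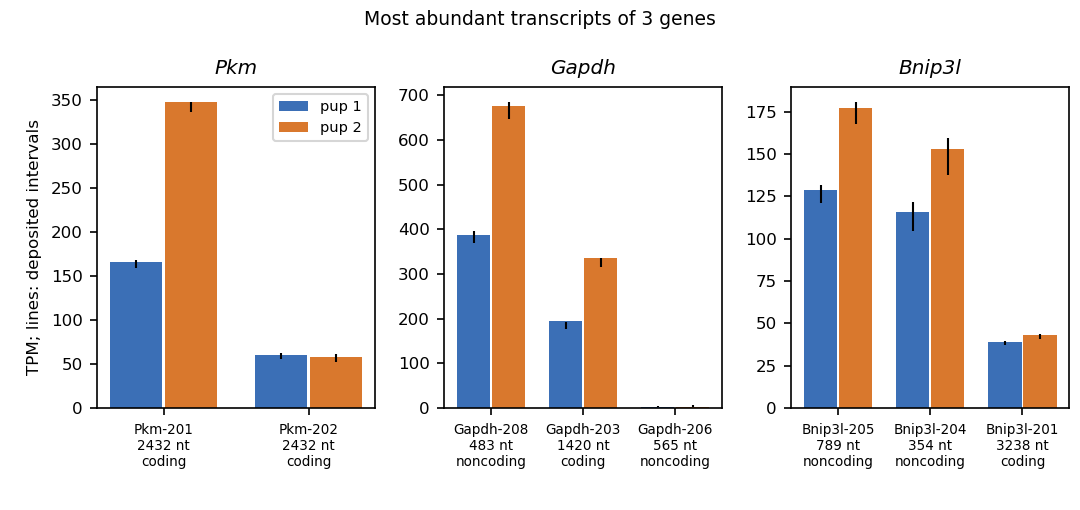
TPM of the most abundant transcripts of Pkm, Gapdh and Bnip3l in each pup, with lines for the deposited intervals and the length and class of each transcript under its bars. In TPM the M2 transcript of Pkm (Pkm-201) lies apart between the pups while the intervals of the M1 transcript (Pkm-202) overlap, although by TMM-scaled counts M1 is lower in pup 2 except under spike-in scaling. Short noncoding transcripts hold most of the TPM of Gapdh and Bnip3l.

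The lactate dehydrogenase genes were close to level between the pups, with Ldha far above Ldhb in both. Ldha, the subunit suited to making lactate and a HIF target (ENSMUSG00000063229.10, chromosome 7, 46841475 to 46855627), had 15410 and 17625 counts, 259 and 366 TPM. Ldhb, the subunit suited to using lactate, had 2957 and 2800 counts, 61.1 and 70.9 TPM. Ldha held 80.9% of their TPM in pup 1 and 83.8% in pup 2, and the log2 ratios were 0.11 and -0.16. Slc16a1 (MCT1, a carrier for lactate uptake and release) stood at 26.4 and 26.3 TPM, above Slc16a3 (MCT4, the export carrier of glycolytic cells) at 6.57 and 8.94 TPM. The log2 ratio was -0.39 (interval -0.45 to -0.33) for Slc16a1 and 0.09 (-0.07 to 0.26) for Slc16a3, the latter including 0. Pdk1, a HIF target whose kinase shuts the pyruvate dehydrogenase complex, was listed at 23.8 and 37.4 TPM, of which its only coding transcript held 30.2% and 28.4%, and had a log2 ratio of 0.29.

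Among the HIF alpha genes Hif1a led and Hif3a was lowest in both pups. Hif1a, the broadly expressed subunit, stood at 21.1 and 29.7 TPM, or 61.2% ± 5.88 of the 3 alpha genes (SD, n = 2). Epas1, which encodes HIF-2 alpha and is known from endothelium and chromaffin cells, stood at 11.6 and 13.0 TPM. Hif3a, some of whose products restrain HIF, had 615 and 375 counts, 4.27 and 2.70 TPM. The shared partner Arnt stood at 10.4 and 15.0 TPM. The log2 ratios of Hif1a (0.08), Arnt (0.15) and Epas1 (-0.22) were small, and that of Hif3a was -0.80 (interval -0.99 to -0.61), although its deposited TPM intervals overlapped (3.61 to 5.41 and 2.33 to 3.92). Endothelial markers, 7 of 7 above 1 TPM in both pups, summed to 150 and 280 TPM. Their median log2 ratio was 0.71, with 6 of 7 above 0, against -0.22 for Epas1. Over the chromaffin markers the median was 0.53, with 5 of 7 above 0. The part of either cell type in Epas1 was not tested. Hif1a RNA was mainly Hif1a-201 (76.7% and 69.0% of its TPM), followed by Hif1a-202 (16.6% and 22.8%).

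Of the oxygen sensors, Egln2 was the most abundant at the RNA level. Egln2 (PHD1) stood at 39.6 and 50.7 TPM, or 78.6% ± 3.22 of the 3 hydroxylase genes (SD, n = 2). Egln3 (PHD3), itself a HIF target, stood at 7.88 and 5.92 TPM, and Egln1 (PHD2), the main hydroxylase of HIF-1 alpha in most cells, at 4.39 and 6.03 TPM. Egln3 was above Egln1 in pup 1, and in pup 2 they were near level. The log2 ratio was -0.80 for Egln3 (interval -0.96 to -0.64), 0.07 for Egln1 and -0.06 for Egln2. Vhl, the recognition subunit of the ligase, had 2501 and 2504 counts, 23.0 and 28.4 TPM.

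The other HIF targets ranged over 2 orders of level, and 4 of 8 had a ratio above 0, where 50.2% of all genes did. Bnip3, which marks mitochondria for removal (ENSMUSG00000078566.4, chromosome 7, 138890836 to 138909519), had 9622 and 17313 counts, 147 and 321 TPM. Ndrg1, a stress gene also known for its role in Schwann cell myelination (ENSMUSG00000005125.8, chromosome 15, 66929318 to 66969640), had 4530 and 2105 counts, 40.7 and 23.4 TPM. Adm, the gene of the vessel-dilating peptide adrenomedullin, had 1926 and 1063 counts, 38.1 and 26.1 TPM. Its only coding transcript held 57.4% and 77.3% of that level, or 21.89 and 20.15 TPM, which lay closer between the pups. Bnip3 was therefore higher in pup 2 (log2 ratio 0.76, interval 0.73 to 0.80). Ndrg1 (-1.19, -1.27 to -1.12) and Adm (-0.94, -1.05 to -0.83) lay on the side of pup 1, a direction that spike-in scaling turns. Markers of Schwann cells and glia, 6 of 6 above 1 TPM in both pups, summed to 175 and 91.4 TPM, and their part in Ndrg1 was not tested.

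The remaining targets lay closer. Ddit4, an inhibitor of mTORC1, stood at 16.2 and 29.4 TPM with a log2 ratio of 0.47, and P4ha1, a collagen prolyl hydroxylase, at 14.2 and 20.2 TPM with 0.14. Car9, the carbonic anhydrase used as a marker of hypoxia, had only 107 and 143 counts (1.46 and 2.39 TPM), and its interval of -0.04 to 0.71 included 0. Ankrd37 had 89 and 79 counts (3.05 and 3.73 TPM), with an interval of -0.71 to 0.20. Both intervals lie inside 2-fold and leave the direction unresolved at this depth. Over its coding transcript alone Ankrd37 had a log2 ratio of -1.23, from 68.6 and 31.3 estimated counts, with overlapping deposited TPM intervals (0.30 to 2.09 and 0.19 to 1.83). Bnip3l, a relative of Bnip3 that clears mitochondria from maturing red cells, was listed at 291 and 383 TPM with 9840 and 9881 counts. As in Gapdh, short noncoding transcripts carried most of that level: Bnip3l-205 (789 nt) held 45.1% ± 1.46 and Bnip3l-204 (354 nt) 39.8% ± 0.11 of its TPM (SD, n = 2). Exons of the coding Bnip3l-201 hold 95.9% and 94.1% of their bases. Over coding transcripts Bnip3l stood at 41.4 ± 3.15 TPM (SD, n = 2), far below Bnip3 at 233 ± 123 TPM on the same scale. Erythroid markers, 5 of 5 above 1 TPM in both pups, summed to 81.6 and 101 TPM.

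Between the pups, 3 of the 40 genes lay over 2-fold apart by scaled counts, against 15.8% of the 18670 genes whose mean count reached 10. Hk2 was higher in pup 2, where the background share was 6.03%, and Slc2a3 and Ndrg1 were higher in pup 1, where it was 9.74%. The directions of Slc2a3 and Ndrg1 turn under spike-in scaling. Just inside 2-fold, over all of their transcripts, lay Adm (-0.94) and Eno2 (-0.93). Of the 24 glycolysis genes, 18 had a ratio above 0, as did 3 of 8 HIF components and 4 of 8 other HIF targets, while 50.2% of all genes did. The median log2 ratio was 0.29 over the glycolysis genes, -0.07 over the HIF components and 0.03 over the other HIF targets, against 0.00 over all genes, where 10% lay under -0.99 and 10% over 0.74. By ratio of TPM, which runs above the count ratio by a median of 0.38, the 3 medians were 0.68, 0.33 and 0.45. The median of all genes was 0.39 on that scale. There 6 of the 40 genes passed 2-fold, against 18.4% of 18588 genes. All 6 were higher in pup 2: Hk2, Pgam2, Pgam1, Bnip3, Eno1 and Aldoa. Slc2a3 and Ndrg1 did not pass on that scale, at -0.75 and -0.80.

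**Figure D5:**
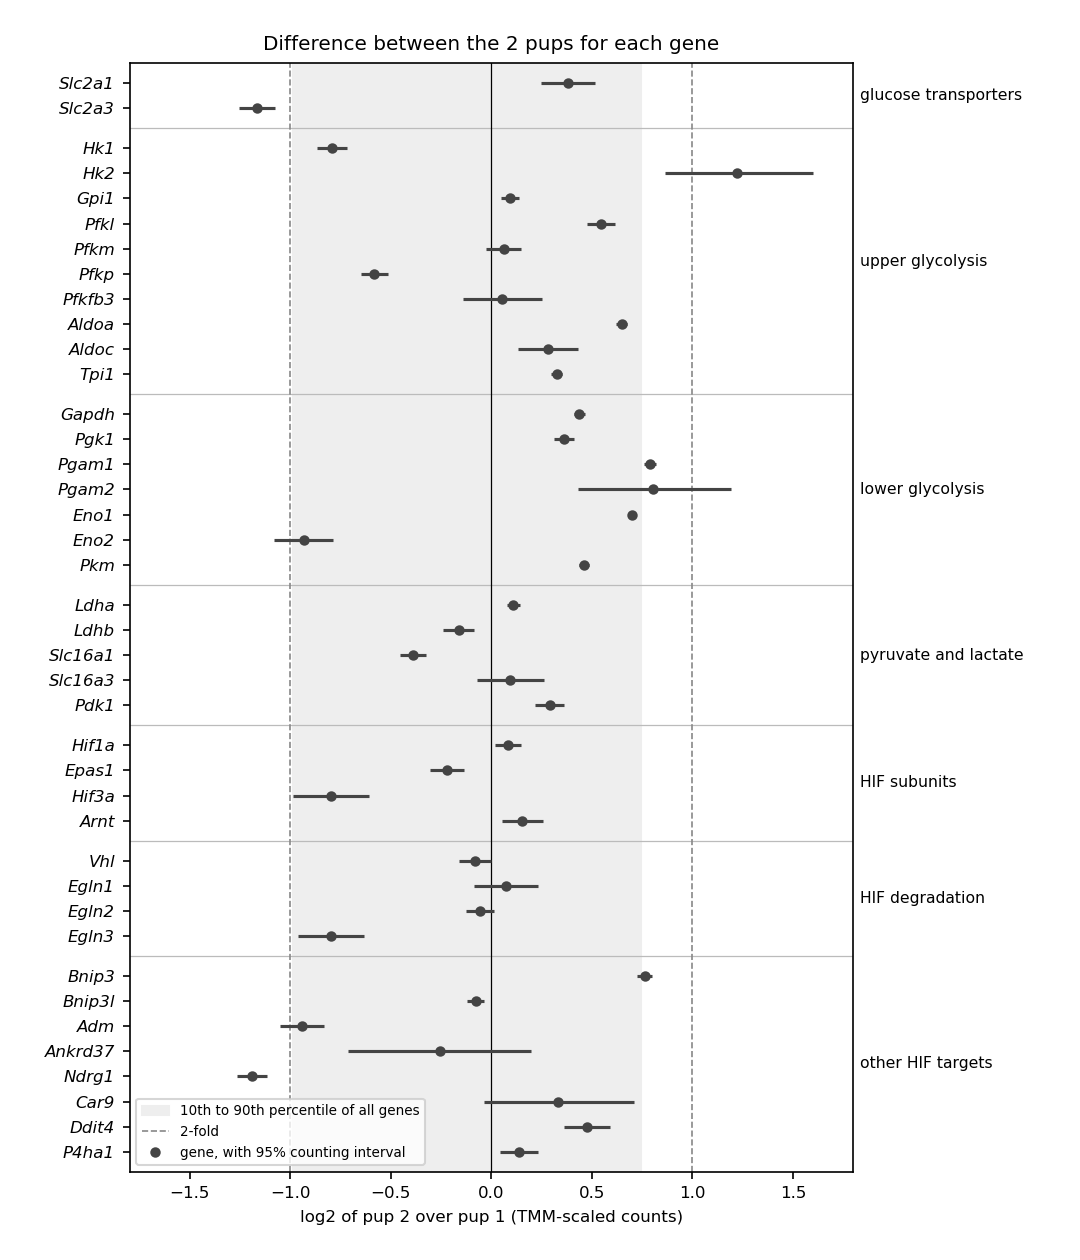
Log2 ratio of pup 2 over pup 1 by TMM-scaled counts for each of the 40 genes, with 95% counting intervals, dashed lines at 2-fold and a grey band from the 10th to the 90th percentile of 18670 genes. Hk2 lies beyond 2-fold to the right and Slc2a3 and Ndrg1 to the left, and all 40 genes lie right of 0 under spike-in scaling.

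Other genes of these pathways, from lists that hold none of the 40, were close to the background between the pups. Over all genes, 6.03% lay over 2-fold higher in pup 2 and 9.74% in pup 1. Of 27 further glycolysis isozymes and branch enzymes with enough counts, 2 lay over 2-fold higher in pup 2 and 2 lay over 2-fold higher in pup 1 (median log2 0.00). Fbp1, a gluconeogenic phosphatase (60.5 and 47.4 TPM), and Pgm1, a phosphoglucomutase (30.8 and 51.3 TPM), were among the most abundant. Pklr, the pyruvate kinase of liver and red cells, lay past 2-fold with 78 and 216 counts and a log2 ratio of 1.38 (interval 1.00 to 1.78). The other 3, named after their values were seen, were Eno4 with 4 and 23 counts, Hkdc1 with 19 and 7, and Fbp2 with 112 and 37. No gene of the 13 for pyruvate entry to mitochondria lay past 2-fold, and the pyruvate carrier genes Mpc1 (339 and 283 TPM) and Mpc2 (195 and 213 TPM) and the dehydrogenase subunit gene Dld (132 and 207 TPM) led them.

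Of 10 further components of HIF control, none lay past 2-fold. Elob (694 and 870 TPM), Eloc (381 and 310 TPM) and Rbx1 (177 and 194 TPM), subunits of the VHL ligase, were far above Vhl itself at 23.0 and 28.4 TPM. Of 27 further HIF targets with enough counts, 3 lay over 2-fold higher in pup 2 and 2 lay over 2-fold higher in pup 1 (median log2 0.05). The shares over all genes were 6.03% and 9.74%. Mif, a cytokine gene (352 and 633 TPM), and Fam162a (247 and 274 TPM) led by level, followed by Rora, a nuclear receptor gene (23.5 and 70.3 TPM), with a log2 ratio of 1.20. Vegfa, the vessel growth factor gene, had 175 and 384 counts with a log2 ratio of 1.05 (interval 0.79 to 1.32), and Ppp1r3c, a glycogen regulator, had 745 and 340 counts with -1.22. Car12, with 33 and 120 counts, also lay past 2-fold and is named after its values were seen. Of these 27 targets, 15 had a ratio above 0, where 50.2% of all genes did.

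Most of the 33 genes with several annotated transcripts kept the same leading one in both pups (29 of 33), and 31 of the 40 genes had over 90% of their TPM in coding transcripts in both. Pfkm was among the 4 that did not keep it: Pfkm-201 held 53.3% in pup 1 and Pfkm-202 held 74.0% in pup 2. The intervals of Pfkm-202 did not overlap (2.93 to 10.7 TPM and 15.1 to 20.7 TPM), while those of Pfkm-201 did. Hk1 was mainly ENSMUST00000099691.6 (79.9% and 70.2%), followed by ENSMUST00000072357.9 (18.3% and 19.8%). Pfkp was divided between Pfkp-201 (52.6% ± 1.95) and Pfkp-207 (28.5% ± 3.63; SD, n = 2). Pdk1 was led by the noncoding ENSMUST00000156036.3 (40.4% ± 3.67; SD, n = 2), and exons of its coding transcript hold all of its bases. Adm was divided between Adm-201, its only coding transcript (57.4% and 77.3%), and ENSMUST00000186620.2 (39.3% and 18.8%), with wide intervals for both.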

How the data were processed

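The authors deposited 1 table of genes and 1 of transcripts for each of 2 libraries. The estimated counts were made by the authors per row and need not be whole, per the file headers. The same headers name TPM and FPKM, which the authors normalized by effective length and library, and posterior means. Deposited bounds of the posterior mean TPM are a signal, and a deposited percent gives the part of each transcript in its gene. The text deposited with each library names mm10 and GENCODE M4. Aligner, quantifier and use of strand: not given in the sources used here. Rows of 97 spike-ins (0.0138% and 0.0025% of counts) and 26248 rows named by a number were left out.

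GENCODE M21, also on mm10, gave symbols, coordinates and transcript classes by Ensembl identifier. Of 192 listed symbols, 2 had no match (Ero1a, also listed as Ero1l, and Ahsp). Counts were rounded, scaled by TMM (edgeR 4.0.16, R 4.3.3) and given 0.5 before taking log2. Ratios carry 95% intervals from the exact binomial that cover counting error only, since reads are not independent molecules. Genes whose mean count reached 10 gave the background. Past 2-fold stands for a call, as no test is possible with 1 library per pup. A planned comparison of isozyme proteins is not analysed here. Alternatives are DESeq2 1.42.0 size factors, total or spike-in counts, other minimums, posterior means, a pseudocount of 5, FPKM, a trend with length and GC content, and coding transcripts only, the last chosen after seeing the data. Ratios were also computed on simulated data with known changes and counting error only, which cannot check them for spread between animals. Tables were computed in python 3.11.15 (pandas 2.3.3, numpy 2.4.6, scipy 1.17.1) and drawn with matplotlib 3.10.9.

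The 40 genes and all lists were chosen with earlier results of these data known. All 40 are named. Of other pathway genes, the 3 most abundant of each list and those past 2-fold with a mean count of at least 100 are named, and transcripts for genes of at least 20 TPM whose leading transcript holds under 80%, and for Pkm and Hif1a. Genes named by both parts of this rule are given once. Of the other pathway genes, 2 that would be named are not reported here.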

Additional observations from a re-analysis of the deposited data

How the results depend on the processing

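The count of 3 genes past 2-fold did not change, and the 3 median ratios moved by less than the counting error of their genes, under DESeq2 size factors, posterior mean counts, a pseudocount of 5, removal of the length and GC trend, no count minimum and a limit on the posterior standard deviation. Total counts gave medians of 0.40 (glycolysis genes), 0.040 (HIF components) and 0.14 (other HIF targets), and shift the median of all genes to 0.11. Spike-in counts gave 40 genes past 2-fold, against 96.6% of all 18670 genes, and medians of 2.85, 2.50 and 2.60. Under spike-in counts Slc2a3 turned to 1.40 and Ndrg1 to 1.38. The spike-ins hold 0.0138% and 0.0025% of counts. The ratio of TPM gave 6 genes, against 18.4% of all genes, and medians of 0.68, 0.33 and 0.45. A mean count of at least 100 leaves out Ankrd37 and gave 0.14 for the other HIF targets. Coding transcripts alone gave 5 genes, with Eno2 (-1.27) and Ankrd37 (-1.23) added, medians of 0.21 for the glycolysis genes and -0.05 for the other HIF targets, and a level of 20.3 TPM for the other HIF targets. Levels over nuclear protein-coding genes, which hold 64.6% and 74.1% of TPM, were 43.4, 18.0 and 37.7 TPM, and in FPKM the other HIF targets stood at 23.1. Without one pup the median level ran from 25.1 to 35.6 TPM for the glycolysis genes, from 11.0 to 14.0 for HIF components and from 24.7 to 27.2 for other HIF targets. The causes were not tested except where fewer genes or transcripts enter. No paired analysis was possible because there is 1 group.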
